A study of Homo sapiens with 78 samples.

Results

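EGR1, EGR2, EGR3, NR4A1, NR4A2, NR4A3, IER2, IER3 and IER5 are immediate early genes, that is, genes transcribed within minutes of a stimulus without need of new protein. They were taken by symbol from a gene-level table of mRNA abundance, in which all 9 were present among 19652 genes. The table came from RNA sequencing of wild-type A549, a human cell line of pulmonary epithelium grown from a lung carcinoma and often used as a model of the alveolar type II cell. Cultures were held overnight in serum-free medium, moved to fresh serum-free medium and then left unstimulated (NS) or exposed to 1 ng/ml of the inflammatory cytokine IL-1β (named IL1B in the labels), to the synthetic glucocorticoid budesonide (Bud) at 300 nM, or to both (IL-1β-plus-budesonide). RNA was taken after 1, 2, 6, 12 and 24 hours, which gave 20 groups. There were 4 libraries in each of 18 groups and 3 libraries in the NS group at 6 hours and the IL-1β-plus-budesonide group at 12 hours, 78 libraries in all. The serum-free medium and the change of medium were common to every group, and the NS cells of the same time were the control for both.

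EGR1, EGR2 and EGR3 encode zinc finger transcription factors that bind GC-rich DNA. Their genes are textbook targets of the ERK pathway, through serum response factor and its Elk partners at CArG boxes, and of CREB at cAMP response elements. NR4A1, NR4A2 and NR4A3 encode orphan nuclear receptors whose activity is set mainly by how much of the protein is made. IER2 encodes a small nuclear protein. IER3 encodes a stress and survival protein whose gene is a known NF-κB target, and IER5 encodes a nuclear regulator of the heat shock response. Budesonide acts through the glucocorticoid receptor, which raises transcription of some genes, including those of feedback inhibitors such as DUSP1 and ZFP36, and lowers that of many inflammatory genes.

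Abundance was given on the TPM scale, which is corrected for transcript length so that genes can be compared, as rescaled between libraries by the authors, and the library sums lay between 812680 and 1009499 TPM. A level of 1 TPM was reached by 11738 to 12321 genes per library, no 2 libraries held identical values, and the number of reads behind each value was unknown. Epithelial markers were present, with 5 of 5 averaging at least 1 TPM and a summed level of 2180 to 15300 TPM. Of the markers of other cells, 2 of 5 for leukocytes (ITGAM and CD68), 1 of 4 for fibroblasts (COL1A1) and 0 of 4 for endothelium averaged 1 TPM. Summed over each whole list, the levels were 4.71 to 44 TPM for leukocytes, 2.88 to 20.2 TPM for fibroblasts and 0.0184 to 2.05 TPM for endothelium. PTPRC and CD3E, which define leukocytes and T cells, did not reach 1 TPM in 3 libraries. That level was reached in 3 or more libraries by 2 of 5 leukocyte, 3 of 4 fibroblast and 1 of 4 endothelial markers. Both treatments had their usual targets. With IL-1β, CXCL8 was higher by 7.50 to 8.85 on the log2 scale over the 5 times, TNFAIP3 by 4.98 to 5.74 and NFKBIA by 2.67 to 4.51. With budesonide, TSC22D3 was higher by 2.36 to 4.70 and PER1 by 1.78 to 3.20 at the 5 times, and FKBP5 by 2.14 to 4.61 from 2 hours. There were 5 libraries that stood farther from their own group than the other 73 (distance 0.291 to 0.459, against at most 0.273, median 0.135): number 2 of IL-1β at 24 hours, number 2 of budesonide at 12 hours, number 2 of IL-1β-plus-budesonide at 12 hours, number 3 of budesonide at 2 hours and number 4 of IL-1β-plus-budesonide at 1 hour. Calls that were lost without them are given beside the result.

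Of the 9 genes, 6 had promoters in the RefSeq table used (GRCh38.p14), with 9 start sites among them. NR4A2, IER3 and EGR3 had no entry. The 150 bases before the start are shown for EGR1 (chr5:138465329-138465478, plus strand) and for the EGR2 start that held a CArG box (chr10:62816367-62816516, minus strand). They were chosen because their group means were the most correlated among the 9 genes, mainly through the early groups with IL-1β. NR4A3 (chr9:99821735-99821884, plus strand) and IER2 (chr19:13150261-13150410, plus strand) are shown as members with another time course. Capitals mark CArG boxes, the 10-base elements bound by serum response factor, and the half-site of the cAMP response element, TGACG or CGTCA on the other strand.
EGR1: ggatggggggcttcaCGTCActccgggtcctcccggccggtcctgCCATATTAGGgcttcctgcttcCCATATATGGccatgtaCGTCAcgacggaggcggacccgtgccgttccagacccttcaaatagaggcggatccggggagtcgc
EGR2: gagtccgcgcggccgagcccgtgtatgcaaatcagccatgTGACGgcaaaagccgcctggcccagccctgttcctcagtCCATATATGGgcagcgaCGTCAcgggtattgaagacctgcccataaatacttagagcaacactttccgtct
NR4A3: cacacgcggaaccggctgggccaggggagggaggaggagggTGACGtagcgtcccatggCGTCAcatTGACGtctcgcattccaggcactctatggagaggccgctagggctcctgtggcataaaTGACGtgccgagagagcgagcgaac
IER2: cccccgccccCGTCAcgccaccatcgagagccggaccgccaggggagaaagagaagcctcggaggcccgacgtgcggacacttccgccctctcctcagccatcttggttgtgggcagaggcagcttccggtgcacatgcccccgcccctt

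The window from 250 bases before to 50 bases after each start was searched on both strands. EGR1 held 2 CArG boxes, at −105 to −96 and −83 to −74 from the start. The EGR2 start shown held 1, at −71 to −62. Such a box was found in 1.3% of the 34796 distinct promoters of the table. Half-sites TGACG were found in 24.5% of the promoters. EGR1 and the EGR2 start shown held 2 each, and IER2 held 1. NR4A3 held 4 (at −109 to −105, −91 to −87, −83 to −79 and −25 to −21). A site for the EGR proteins themselves, GCGNGGGCG, was found in 9.43% of promoters, in EGR1 at −198 to −190 and at another EGR2 start. Sites for NF-κB, present in 5.91% of promoters, and glucocorticoid response elements, present in 0.178%, were found in none of the 9 windows. The windows of IER5, of both NR4A1 starts and of the EGR2 start at chr10:62819167 held none of the 5 motifs. The EGR2 start at chr10:62818775 held the EGR site and neither a CArG box nor a half-site. A match describes the letters of these windows only.

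In unstimulated cells the 9 mRNAs spanned a wide range of levels. IER3 (GENCODE 44, chr6:30743199-30744548) was the most abundant, with a lowest, median and highest TPM of 39.7, 47.7 and 65.1 over the 19 NS libraries. IER2 (chr19:13150411-13154911; 16, 18.3 and 24.2 TPM) and NR4A1 (chr12:52022832-52059507; 10.7, 17.4 and 26.7 TPM) came next and overlapped each other. IER5 (chr1:181088700-181092900) followed at 7.81, 8.76 and 10.2 TPM, just under the lowest NR4A1 library. NR4A2 (chr2:156324437-156342348; 2.3, 4.92 and 8.63 TPM) overlapped IER5. NR4A3 (chr9:99821855-99866891; 0.412, 0.631 and 1.36 TPM) and EGR1 (chr5:138465479-138469303; 0.217, 0.514 and 1.38 TPM) overlapped each other and lay below the other genes named so far. EGR2 (chr10:62811996-62819167) and EGR3 were at the bottom of the range. EGR2 had a highest NS value of 0.101 TPM and was listed at 0 in 9 of 19 NS libraries, and EGR3 had a highest value of 0.149 TPM and was listed at 0 in 4 of 19.

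Tests were made on log2(TPM + 0.5) over the 13327 genes that reached 1 TPM in 3 or more libraries, with limma and Benjamini-Hochberg adjustment, and a gene was called up- or downregulated at an adjusted p of at most 0.05 and a log2 fold change of at least 1 in size. The added 0.5 shrinks the fold of the low genes EGR1, EGR2, EGR3 and NR4A3. EGR2 and EGR3 reached 1 TPM in no NS library and entered the test through the groups in which they were high, so they had to differ there. Their values are given, and all counts are over the other 7 genes. Which library came from which of the independent experiments was not given in the labels, so the p-values measure the spread between these libraries. Abundance in a whole culture cannot tell fewer expressing cells from less RNA per cell.

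In NS cells, none of the 7 genes was called against 1 hour at 2, 6, 12 or 24 hours. Of all genes tested, 0.435% were called higher and 0.225% lower at some time, so the absence of calls among 7 genes is near the background share. EGR1, the growth response factor, was lower than at 1 hour by less than the threshold, with differences of −0.77 (adjusted p = 0.108), −0.98 (adjusted p = 0.0116), −0.81 (adjusted p = 0.0159) and −0.76 (adjusted p = 0.00853) at 2, 6, 12 and 24 hours. The 4 NS libraries at 1 hour stood at 0.696, 1.38, 1.15 and 1.31 TPM, given here and below in the order of their replicate numbers. From 2 hours on, the NS libraries lay between 0.217 and 0.725 TPM, so that the 1-hour libraries overlapped the later ones only through number 1. With 0.1 added in place of 0.5, the EGR1 differences at 6, 12 and 24 hours passed the threshold (−1.58, −1.25 and −1.13). NR4A3 at 24 hours (0.56, adjusted p = 0.00803) and IER3 at 24 hours (−0.40, adjusted p = 0.0167) also differed from 1 hour by less than the threshold.

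**Figure D1:**
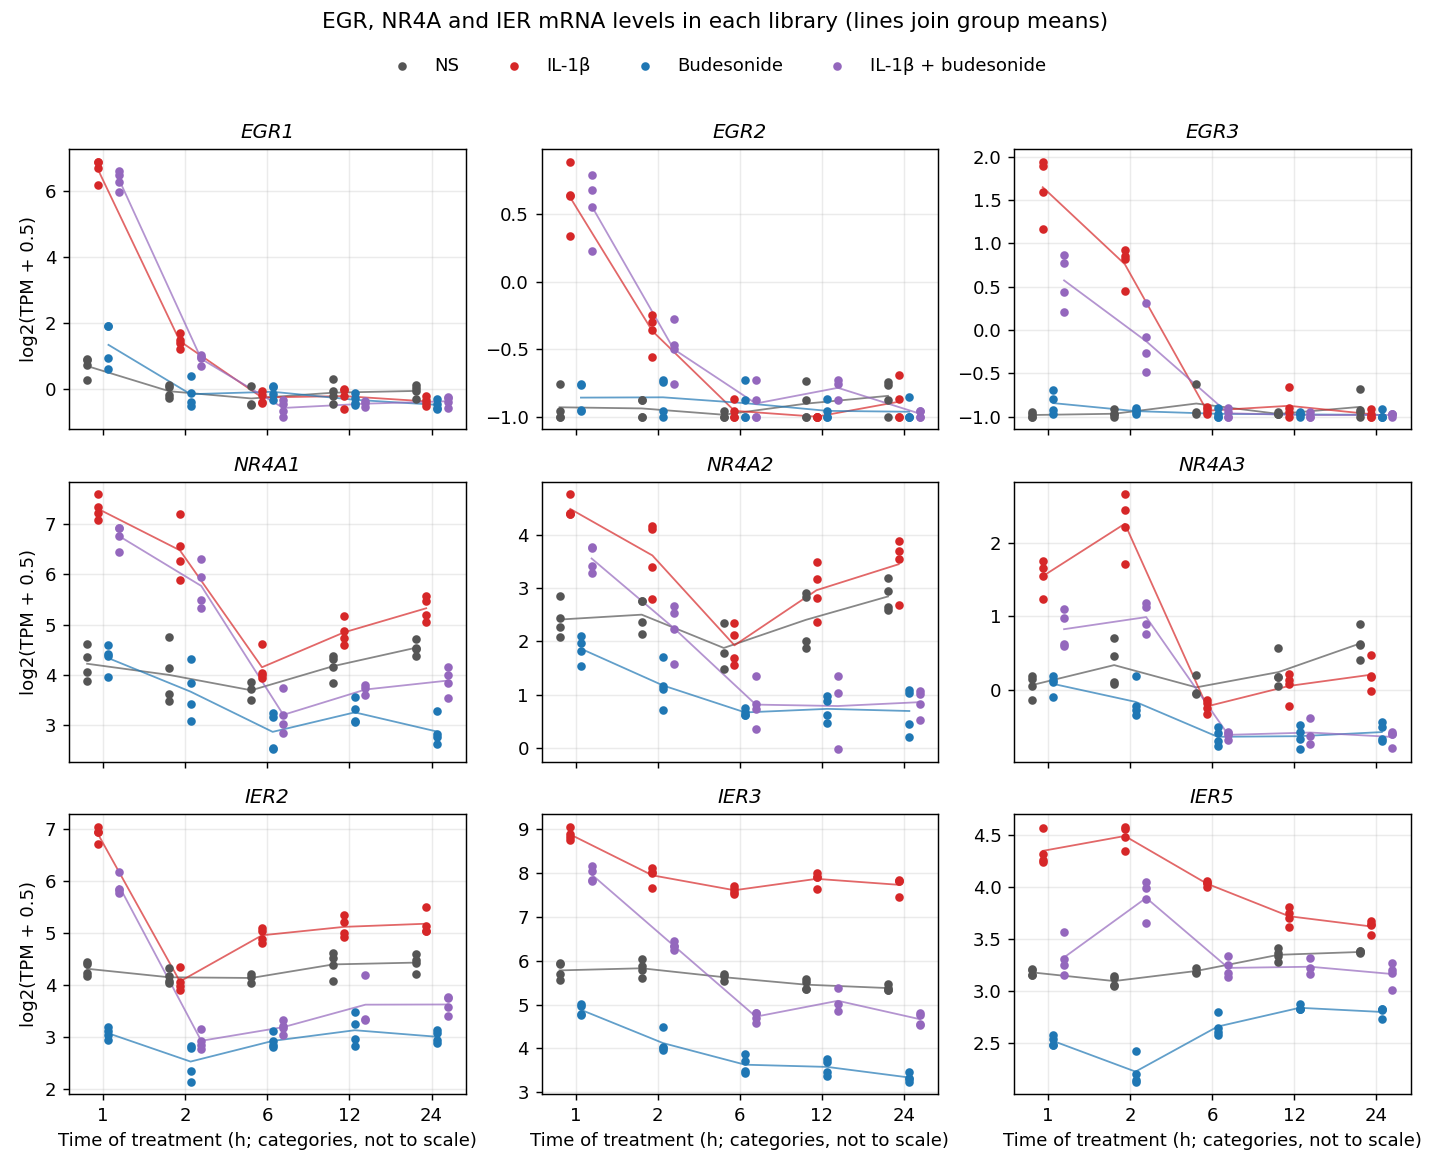
Abundance of each of the 9 mRNAs as log2(TPM + 0.5) (vertical axis, its own range in each panel) in every library at 1, 2, 6, 12 and 24 hours (horizontal axis, equal steps), coloured by treatment, with lines through the group means. EGR1 with IL-1β reached 72 to 117 TPM at 1 hour and was at 0.453 TPM or less in every library at 6 hours, whereas IER3 with IL-1β stayed at 173 TPM or more at all times.

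IL-1β raised all 7 counted genes. At 1 hour 7 of 7 were upregulated, where 1.02% of all genes tested were, and at 2 hours 6 of 7, where 2.82% were. At 6, 12 and 24 hours 1 of 7 was upregulated, namely IER3, against a background of 5.21%, 3.65% and 3.76%. None was downregulated at any time, where 8.8% of all genes were at some time and 7.53% were upregulated. The median log2 difference of the 7 genes was 2.60 at 1 hour and 1.52 at 2 hours, and 0.45, 0.56 and 0.60 at 6, 12 and 24 hours, while the median of all genes lay between −0.07 and −0.03.

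The EGR genes gave a short burst. EGR1 in the 4 IL-1β libraries at 1 hour stood at 72, 117, 104 and 117 TPM, far above every NS library. This was 5.97 ± 0.19 (SE) on the log2 scale, or 62.7-fold with the added 0.5 (adjusted p = 6.29e-36). At 2 hours the 4 libraries were back at 2.72, 2.11, 2.31 and 1.8 TPM, still clear of the NS values of 0.317 to 0.585 TPM (1.52 ± 0.19, adjusted p = 3.41e-09). From 6 hours the groups overlapped, with log2 differences of 0.03, −0.10 and −0.32 (adjusted p = 0.923, 0.727 and 0.214). EGR2, which encodes a close relative best known from myelinating glia and T cells, followed the same course at a far lower level: 1.06, 1.05, 1.35 and 0.762 TPM at 1 hour, 0.181, 0.279, 0.344 and 0.312 TPM at 2 hours and at most 0.121 TPM later. EGR3 stood at 3.33, 2.52, 3.21 and 1.74 TPM at 1 hour and 0.869, 1.26, 1.39 and 1.3 TPM at 2 hours. All of these lay above the NS libraries of the same time, and EGR3 kept more of its 1-hour level at 2 hours than EGR1 did, a difference between genes that was not tested.

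The NR4A genes had their highest means with IL-1β at 1 or 2 hours, and differences in timing between them were not tested. NR4A1 (also known as Nur77) stood at 149, 161, 192 and 134 TPM at 1 hour with IL-1β against 14.2, 16.2, 23.9 and 19.9 TPM in NS, a difference of 3.08 ± 0.23 or 8.46-fold (adjusted p = 3.06e-17). At 2 hours it was at 58.5, 76.9, 146 and 94 TPM (2.48 ± 0.23, adjusted p = 1.11e-13), at 6 hours at 14.9, 15.6, 24.1 and 16 TPM against 12.7, 10.9 and 14 TPM in NS (0.45 ± 0.25, adjusted p = 0.14). The later values were higher again without reaching the threshold: 32.7, 36.3, 47.1 and 44.1 TPM at 24 hours, all above the NS libraries of 20.3 to 25.8 TPM (0.79 ± 0.23, adjusted p = 0.00577).

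NR4A2 (Nurr1, a factor known from dopamine neurons) stood at 20.5, 20.4, 26.6 and 20.8 TPM at 1 hour with IL-1β against 3.76, 4.3, 4.92 and 6.7 TPM in NS (2.08 ± 0.28, adjusted p = 4.59e-08). At 2 hours its 4 libraries spread from 6.4 to 17.4 TPM, above all NS libraries of that time (1.11 ± 0.28, adjusted p = 0.00219), and from 6 hours they overlapped NS. NR4A3 (NOR-1) was the one NR4A gene with its highest mean at 2 hours. It stood at 2.64, 2.42, 2.86 and 1.86 TPM at 1 hour (1.48 ± 0.14, adjusted p = 9.78e-13) and 2.79, 4.13, 5.8 and 4.95 TPM at 2 hours (1.92 ± 0.14, adjusted p = 8.44e-18). The 2 times overlapped only between the highest library at 1 hour and the lowest at 2 hours, and the response at 2 hours was not shown to differ from that at 1 hour (0.44, adjusted p = 0.321).

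The IER genes followed 3 different courses. IER2 was at 105, 132, 123 and 123 TPM at 1 hour with IL-1β against 17.6 to 21.2 TPM in NS (2.60 ± 0.14, adjusted p = 4.28e-24). At 2 hours it was at 16.1, 14.5, 15.3 and 19.8 TPM, on both sides of the NS range of 16 to 19.5 TPM (−0.08 ± 0.14, adjusted p = 0.806). At 6, 12 and 24 hours it was above NS in every library, at 27.7 to 33.7, 30.1 to 40.1 and 32.4 to 45 TPM, with differences under the threshold of 0.82, 0.72 and 0.75 (adjusted p = 8.03e-06, 2.97e-05 and 1.46e-05). Its course had a peak, a return to the NS level and then values above NS again.

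IER3 alone stayed called at all 5 times. The IL-1β libraries stood at 450, 527, 425 and 472 TPM at 1 hour against 51.6, 59.9, 46.3 and 60.8 TPM in NS, a difference of 3.09 ± 0.11 or 8.53-fold (adjusted p = 1.95e-33). At 24 hours they were at 173, 228, 224 and 224 TPM against 39.7 to 43.7 TPM in NS (2.35 ± 0.11, 5.10-fold, adjusted p = 2.51e-27). No IL-1β library overlapped an NS library at any time. IER5 had the smallest response at 1 hour among the 7 genes, 23.2, 19.5, 18.7 and 18.4 TPM against 8.39 to 8.76 TPM in NS (1.17 ± 0.07, 2.24-fold, adjusted p = 2.32e-21), and its spread between libraries was small. It was at 23, 23.4, 19.9 and 21.8 TPM at 2 hours (1.39 ± 0.07, adjusted p = 1.82e-25) and then came down in steps, to 15.9, 12.7 and 11.8 TPM on average at 6, 12 and 24 hours (SD 0.308, 0.709 and 0.518; n = 4). At 24 hours it was still above NS in every library (0.25 ± 0.07, adjusted p = 0.00492), by less than the threshold.

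The decline of the response was tested as the difference between IL-1β minus NS at a later time and at 1 hour, and 7.86% of all genes were called lower in it at some time. Of 28 gene and time pairs 18 were called lower, in 6 of the 7 genes, with IER5 the gene that was never called. EGR1 (−4.45 ± 0.28, adjusted p = 2.24e-20) and IER2 (−2.68 ± 0.20, adjusted p = 5.21e-17) were called already at 2 hours. The NR4A genes were first called at 6 hours, at −2.63 ± 0.34 for NR4A1 (adjusted p = 7.24e-09), −2.03 ± 0.41 for NR4A2 (adjusted p = 7.71e-05) and −1.74 ± 0.21 for NR4A3 (adjusted p = 9.23e-10). For NR4A2 at 12 hours the call was lost without replicate 3 (−1.37, adjusted p = 0.0593; −1.52, adjusted p = 0.00318 with it). IER3 was called at 6 hours only (−1.12 ± 0.17, adjusted p = 1.61e-07), and IER5 stood at −0.92 at 24 hours (adjusted p = 5.77e-11).

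**Figure D2:**
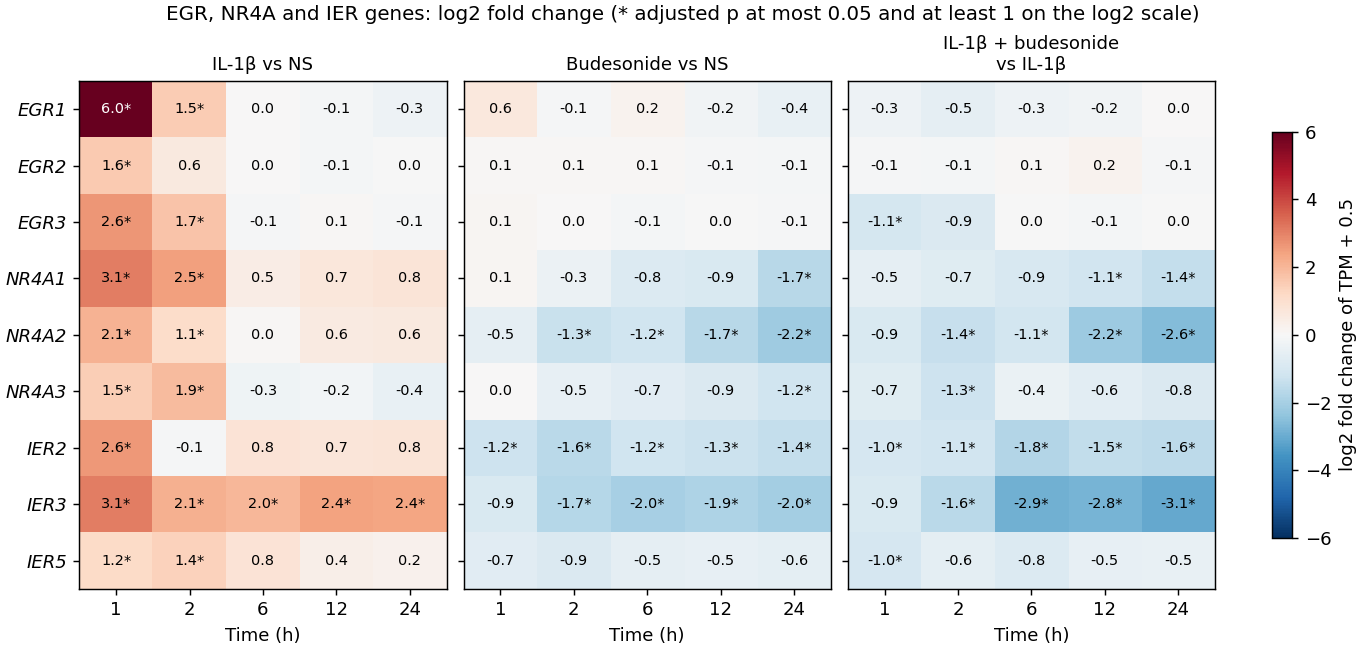
Log2 fold change of each of the 9 genes (rows) at each time in hours (columns) for IL-1β against NS, budesonide against NS and IL-1β-plus-budesonide against IL-1β; red is higher, blue is lower, and an asterisk marks an adjusted p of at most 0.05 with a log2 fold change of at least 1 in size. Asterisks on EGR2 and EGR3 are not counted as calls, because both genes entered the test through the groups in which they were high. EGR1 is at 5.97 at 1 hour with IL-1β and has no asterisk with budesonide. IER3 reaches −3.06 in IL-1β-plus-budesonide against IL-1β at 24 hours.

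Budesonide alone raised none of the 7 genes, where 4.87% of all genes were called higher at some time, and lowered 5 of them, where 6.36% of all genes were called lower at some time. The number called lower was 1 of 7 at 1 hour (0.0225% of all genes), 3 at 2 hours (0.315%), 3 at 6 hours (0.968%), 3 at 12 hours (2.6%) and 5 at 24 hours (5.7%). The median of the 7 genes was −0.55, −0.87, −0.83, −0.92 and −1.43 at the 5 times, while that of all genes lay between −0.04 and 0.00. EGR1 and IER5 were never called.

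IER2 was the one gene of the 7 called lower at 1 hour. There the 4 budesonide libraries stood at 8.64, 8.12, 7.19 and 7.76 TPM against 18.3, 21.2, 20.8 and 17.6 TPM in NS (−1.24 ± 0.14, 2.37-fold lower, adjusted p = 1.53e-09), with no overlap. IER2 was 1 of 3 genes called lower at this time among the 13327 tested. It remained at 3.92 to 10.7 TPM in the later budesonide libraries, with differences of −1.62, −1.21, −1.27 and −1.43 at 2, 6, 12 and 24 hours. IER3 at 1 hour was at 26.7, 30.6, 26.9 and 31.9 TPM, below every NS library (−0.90 ± 0.11, adjusted p = 2.79e-08) but short of the threshold. It then went lower still, to 15.1 to 22.1 TPM at 2 hours (−1.70 ± 0.11, adjusted p = 1.6e-19) and 9.48, 9.45, 9 and 10.6 TPM at 24 hours (−2.04 ± 0.11, 4.10-fold lower, adjusted p = 2.16e-24). IER5 was below NS in every budesonide library at every time, at 3.89 to 6.84 TPM against 7.81 to 10.2 TPM. Its differences of −0.66, −0.87, −0.53, −0.51 and −0.58 had adjusted p of at most 1.34e-07 and none reached the threshold.

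Among the NR4A genes, NR4A2 was called from 2 hours on. At 2 hours it stood at 1.65, 1.14, 1.73 and 2.78 TPM against 3.89, 4.66, 6.24 and 6.24 TPM in NS (−1.33 ± 0.28, adjusted p = 0.00067). At 24 hours it was at 0.87, 0.656, 1.62 and 1.53 TPM against 5.78, 5.54, 7.17 and 8.63 TPM (−2.15 ± 0.28, 4.44-fold lower, adjusted p = 1.65e-09). The groups did not overlap at either time. The call at 6 hours (−1.21 ± 0.30, adjusted p = 0.00199) was lost without replicate 4 (−1.002, adjusted p = 0.0501). NR4A1 was at 20.2, 15, 20.8 and 23.8 TPM at 1 hour, within the NS range (0.11, adjusted p = 1), and at 6.27, 5.69, 9.3 and 6.61 TPM at 24 hours, far under the NS libraries of 20.3 to 25.8 TPM (−1.66 ± 0.23, 3.16-fold lower, adjusted p = 1.64e-08). NR4A3 was at 0.133, 0.209, 0.123 and 0.24 TPM at 24 hours against 0.828 to 1.36 TPM in NS (−1.20 ± 0.14, adjusted p = 1.52e-10). At these low levels the call turned on the added constant: with 1 added NR4A3 was not called at 24 hours (−0.81), and with 0.1 added it was called also at 6 (−1.37) and 12 hours (−1.67). For all 3 receptors the response at 24 hours differed from that at 1 hour. The test called NR4A1 (−1.77, adjusted p = 1.72e-05), NR4A2 (−1.60, adjusted p = 0.00107) and NR4A3 (−1.22, adjusted p = 1.97e-06) lower. With 1 added the NR4A3 difference (−0.82) was under the threshold.

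In this test over time 8 of 28 pairs were called lower, in 5 of the 7 genes, where 6.11% of all genes were at some time. At 12 hours NR4A1 (−1.03, adjusted p = 0.0235) and NR4A2 (−1.13, adjusted p = 0.0409) were called, and each lost its call when replicate 1 (adjusted p = 0.139 and 0.147) or replicate 4 (adjusted p = 0.144 and 0.0985) was left out. NR4A1 also lost it without replicate 2 (adjusted p = 0.0796) or the 5 far libraries (−0.96), and NR4A2 without replicate 3 (adjusted p = 0.224). IER3 was called at 6 (−1.10) and 24 hours (−1.14). IER2, already downregulated at 1 hour, was not called here.

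EGR1 responded little to budesonide. The 1-hour libraries stood at 3.23, 1.4, 1.01 and 3.23 TPM against 0.696 to 1.38 TPM in NS, which was 0.64 ± 0.19 higher and did not pass (adjusted p = 0.213). Libraries 1 and 4 were the high ones and the other 2 lay at the NS level. At 24 hours they stood at 0.158, 0.227, 0.31 and 0.162 TPM against 0.301 to 0.572 TPM (−0.42 ± 0.19, adjusted p = 0.0758). The difference between these 2 responses was called (−1.06, adjusted p = 0.00192). The call was lost without replicate 1 (−0.70, adjusted p = 0.129) or replicate 4 (−0.98), or with 1 added (−0.79). EGR2 with budesonide stayed at or below 0.105 TPM and EGR3 at or below 0.12 TPM in every library.

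When budesonide was added together with IL-1β, the level of most of these genes was lower than with IL-1β alone. None of the 7 genes was called higher, where 5.15% of all genes were at some time, and 6 of 7 were called lower at some time, where 5.6% were. The number called lower was 2 at 1 hour (0.09% of all genes), 4 at 2 hours (0.548%), 3 at 6 hours (2.48%), 4 at 12 hours (3.53%) and 4 at 24 hours (3.52%). The median of the 7 genes was −0.91, −1.14, −0.94, −1.13 and −1.44 at the 5 times, while that of all genes lay between −0.03 and 0.03. This comparison and that of IL-1β with NS share the IL-1β libraries.

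EGR1 was the gene that was never called. At 1 hour the IL-1β-plus-budesonide libraries stood at 62.2, 97.1, 77.1 and 89.7 TPM against 72, 117, 104 and 117 TPM with IL-1β, which overlapped (−0.32 ± 0.19, adjusted p = 1). At 2 hours they stood at 1.51, 1.12, 1.46 and 1.42 TPM against 1.8 to 2.72 TPM, without overlap (−0.54 ± 0.19, adjusted p = 0.107). EGR2 at 1 hour overlapped in the same way, at 0.966, 1.1, 1.23 and 0.671 TPM against 0.762 to 1.35 TPM. EGR3 stood at 1.32, 0.855, 1.21 and 0.658 TPM with IL-1β-plus-budesonide against 3.33, 2.52, 3.21 and 1.74 TPM with IL-1β, and the lowest IL-1β library was above the highest of the combination. The difference between EGR3 and the other EGR genes was not tested, and number 4 of this combination group was one of the 5 far libraries. At 2 hours EGR3 was at 0.216, 0.331, 0.741 and 0.445 TPM against 0.869 to 1.39 TPM, again without overlap.

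The NR4A genes were lower to differing degrees. NR4A1 at 1 hour stood at 120, 86.4, 121 and 108 TPM with the combination, below every IL-1β library (134 to 192 TPM), but the difference did not pass (−0.55 ± 0.23, adjusted p = 1). It was called at 12 hours, at 12.8, 11.6 and 13.5 TPM against 23.8, 26.1, 35.6 and 29 TPM (−1.13 ± 0.25, adjusted p = 0.000272), and at 24 hours, at 13.8, 15.6, 17.4 and 11.2 TPM against 32.7 to 47.1 TPM (−1.44 ± 0.23, adjusted p = 9.11e-07). NR4A2 was called from 2 hours on. Its largest difference was at 24 hours, with 1.27, 0.933, 1.61 and 1.52 TPM against 12.4, 5.91, 11.2 and 14.2 TPM (−2.59 ± 0.28, 6.02-fold lower, adjusted p = 1.02e-11). NR4A3 was called at its 2-hour peak, at 1.19, 1.36, 1.77 and 1.69 TPM against 2.79, 4.13, 5.8 and 4.95 TPM (−1.26 ± 0.14, 2.40-fold lower, adjusted p = 3.63e-10). At 24 hours the NR4A2 level of the combination was close to that with budesonide alone (0.17 ± 0.28 apart, adjusted p = 0.826). For NR4A2 at 6 hours (−1.11) the value was under the threshold without replicate 3 (−0.98) or with 1 added in place of 0.5 (−0.93).

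IER3 had the largest reduction of the 9 genes on the log2(TPM + 0.5) scale. At 1 hour it stood at 225, 264, 226 and 283 TPM with the combination against 425 to 527 TPM with IL-1β (−0.91 ± 0.11, adjusted p = 2.18e-08), and at 2 hours at 80.4, 80.3, 74.9 and 86.8 TPM against 199 to 273 TPM (−1.60 ± 0.11, adjusted p = 2.18e-18). From 6 hours on it was at 22.8 to 41.1 TPM while IL-1β alone held 173 to 256 TPM. The differences were −2.88, −2.77 and −3.06 at 6, 12 and 24 hours, the last being 8.32-fold lower (SE 0.11, adjusted p = 7.55e-33). IER2 was called at all 5 times, from 54.1, 56.3, 57.2 and 72.2 TPM against 105 to 132 TPM at 1 hour (−1.01 ± 0.14, adjusted p = 7.56e-07) to 8.5, 7.72, 9.61 and 8.81 TPM against 27.7 to 33.7 TPM at 6 hours (−1.77 ± 0.14, adjusted p = 1.31e-16). The 1-hour call was at the threshold and was lost without replicate 2 (−0.94) or replicate 3 (−0.98).

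IER5 with the combination at 1 hour was at 11.4, 9.06, 8.42 and 9.45 TPM, around the NS level, against 18.4 to 23.2 TPM with IL-1β (−1.02 ± 0.07, adjusted p = 2.97e-17), a call lost without replicate 3 (−0.99) or with 1 added in place of 0.5 (−0.985). At 2 hours it had come up to 16.1, 15.4, 12.1 and 14.3 TPM, above every NS library, and its highest mean with the combination was thus at 2 hours. The difference from IL-1β at that time was −0.59 ± 0.07 (adjusted p = 2.7e-09).

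**Figure D3:**
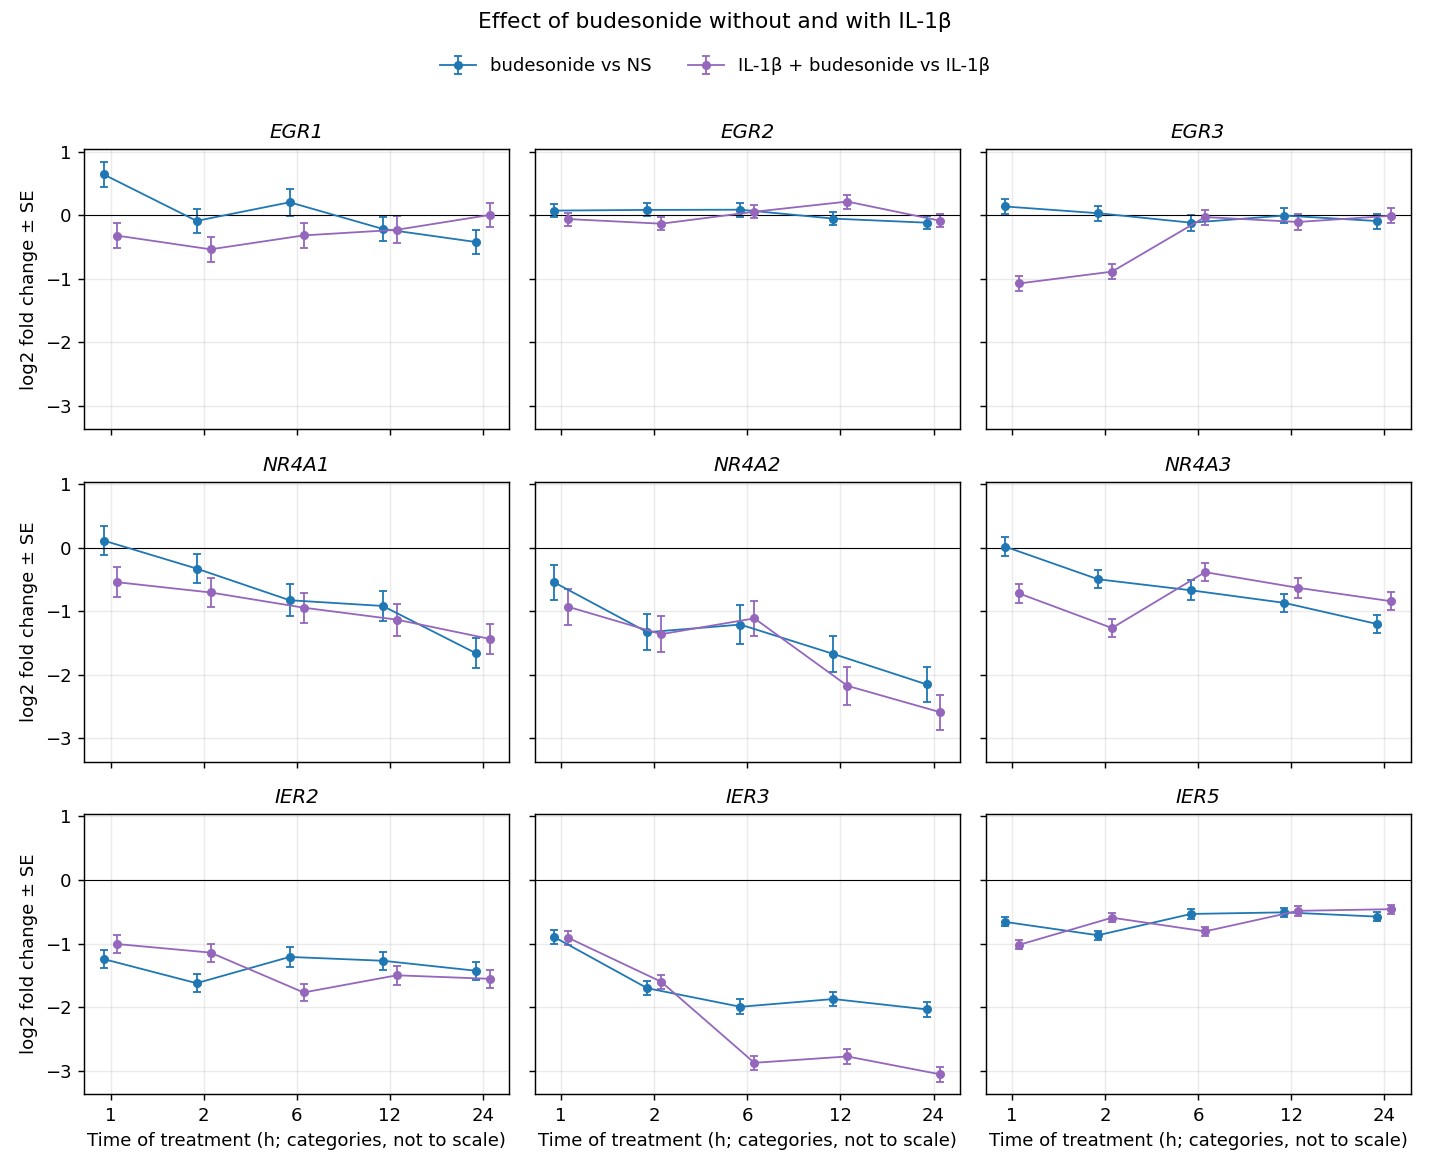
Log2 fold change ± SE (vertical axis, shared by all panels) at each time in hours (horizontal axis, equal steps) for budesonide against NS in blue and IL-1β-plus-budesonide against IL-1β in purple. The 2 lines lie within 0.10 of each other for IER3 at 1 and 2 hours and separate from 6 hours on, and for EGR3 they are 1.21 apart at 1 hour, a value given without a call.

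Whether the effect of budesonide differed in the presence of IL-1β was tested as an interaction on the log2 scale, in which 4.52% of all genes were called higher and 3.47% lower at some time. Among the 7 genes 1 pair was called, IER3 at 24 hours (−1.02 ± 0.16, adjusted p = 8.07e-07), after −0.01 (adjusted p = 1), 0.10 (adjusted p = 1), −0.88 (adjusted p = 7.23e-05) and −0.90 (adjusted p = 5.15e-05) at 1, 2, 6 and 12 hours. Without replicate 4 the 24-hour value was −0.91 (adjusted p = 0.000157) and without the 5 far libraries −0.985 (adjusted p = 1.38e-06), both under the threshold in size, as was the value with 0.1 added (−0.998). For EGR3, which entered the test through the IL-1β groups and was at 0.12 TPM or less with budesonide alone, the value at 1 hour was −1.21 (−0.94 with 1 added in place of 0.5), and it is given here without a call. NR4A3 at 2 hours passed the adjusted p but not the size (−0.77 ± 0.20, adjusted p = 0.0361), and EGR1 at 1 hour did not pass (−0.96 ± 0.28, adjusted p = 0.295).

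Set against NS, IL-1β-plus-budesonide left 5 of 7 genes upregulated at 1 hour, where 1.07% of all genes were, and 1 of 7 at 2 hours, where 2.86% were. EGR1 (5.65), NR4A1 (2.54), IER3 (2.18), IER2 (1.59) and NR4A2 (1.15) were called at 1 hour, and NR4A1 (1.77) at 2 hours. The NR4A2 call (adjusted p = 0.00622) was lost without replicate 1 (adjusted p = 0.177) or replicate 3 (adjusted p = 0.123). At later times, cultures with IL-1β-plus-budesonide were below NS in some genes. Over all times 5 genes were called higher and 3 lower, 2 of them in both directions, where 7.64% and 7.92% of all genes were called higher and lower. IER2 was lower at 2 hours, at 7.08, 6.35, 6.74 and 8.42 TPM against 16 to 19.5 TPM (−1.22 ± 0.14, adjusted p = 1.57e-10). NR4A2 was lower at 6, 12 and 24 hours (−1.06, −1.62 and −1.99), with the 6-hour call lost without replicate 1 (adjusted p = 0.0515) or with 1 added (−0.88), and NR4A3 at 24 hours (−1.27, adjusted p = 2.93e-11; −0.84 with 1 added). IER3 at 6, 12 and 24 hours was under NS by less than the threshold (−0.90, −0.37 and −0.71), and at 24 hours its 4 libraries stood at 22.8, 26.5, 27.3 and 23.2 TPM against 39.7 to 43.7 TPM in NS.

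Set against budesonide alone, 7 of 7 genes were called higher with IL-1β-plus-budesonide at some time, where 4.91% of all genes were. None was called lower, but the share of all genes called lower is not given here, so this count has no background. At 1 hour EGR1 was 5.01 higher, IER3 3.08, IER2 2.84, NR4A1 2.42 and NR4A2 1.70. NR4A3 (1.15) and IER5 (1.67) were called at 2 hours. IER3 remained called at 6 (1.10), 12 (1.5) and 24 hours (1.33), where its libraries with the combination, at 22.8 TPM or more, did not overlap those with budesonide, at 14.2 TPM or less. For NR4A1 the call at 24 hours (1.01) was lost without replicate 1 (0.99) or replicate 2 (0.89), and for EGR1 that at 2 hours (1.07) without replicate 3 (0.97) or the 5 far libraries. With 1 added in place of 0.5 these calls and the 2-hour calls of NR4A2 (0.94) and NR4A3 (0.83) were lost as well. The NR4A2 call at 2 hours (1.08) was also lost without replicate 2 (0.935) or replicate 3 (0.936, adjusted p = 0.0936).

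Other immediate early genes did not all share this pattern. Of a list of 25, 22 were tested (not DUSP2, EGR4 and ARC). With IL-1β 16 were called higher and 5 lower at some time, against 7.53% and 8.8% of all genes, and the largest at 1 hour were the AP-1 subunit FOSB (5.00 ± 0.23), the mRNA-destabilizing factor ZFP36 (4.49 ± 0.22), the phosphatase subunit PPP1R15A (3.88 ± 0.08) and the stress factor ATF3 (3.85 ± 0.22). With budesonide 9 were called higher and 4 lower, against 4.87% and 6.36%. The MAP kinase phosphatase DUSP1 (3.19 ± 0.12 at 24 hours), FOS (2.94 ± 0.49 at 6 hours), ZFP36 (2.60 ± 0.22 at 2 hours) and the matricellular CCN2 (2.27 ± 0.21 at 6 hours) were higher. None of the 7 counted EGR, NR4A and IER genes was called higher, which for so few genes is near the share of 4.87% and does not set them apart. For IL-1β-plus-budesonide against IL-1β 9 were called higher, 6 lower and 7 not at all, against 5.15% higher and 5.6% lower among all genes. FOS (2.96 ± 0.45 at 6 hours) and DUSP1 (2.66 ± 0.12 at 24 hours) were higher, and ATF3 (−2.37 ± 0.22 at 6 hours) and the AP-1 subunit FOSL1 (−2.21 ± 0.14 at 6 hours) lower. In the interaction 8 were called lower and 1 higher, against 3.47% and 4.52%, with the largest value for ZFP36 (−2.46 ± 0.31 at 1 hour). In NS over time 2 were called lower, against 0.225% of all genes.

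**Figure D4:**
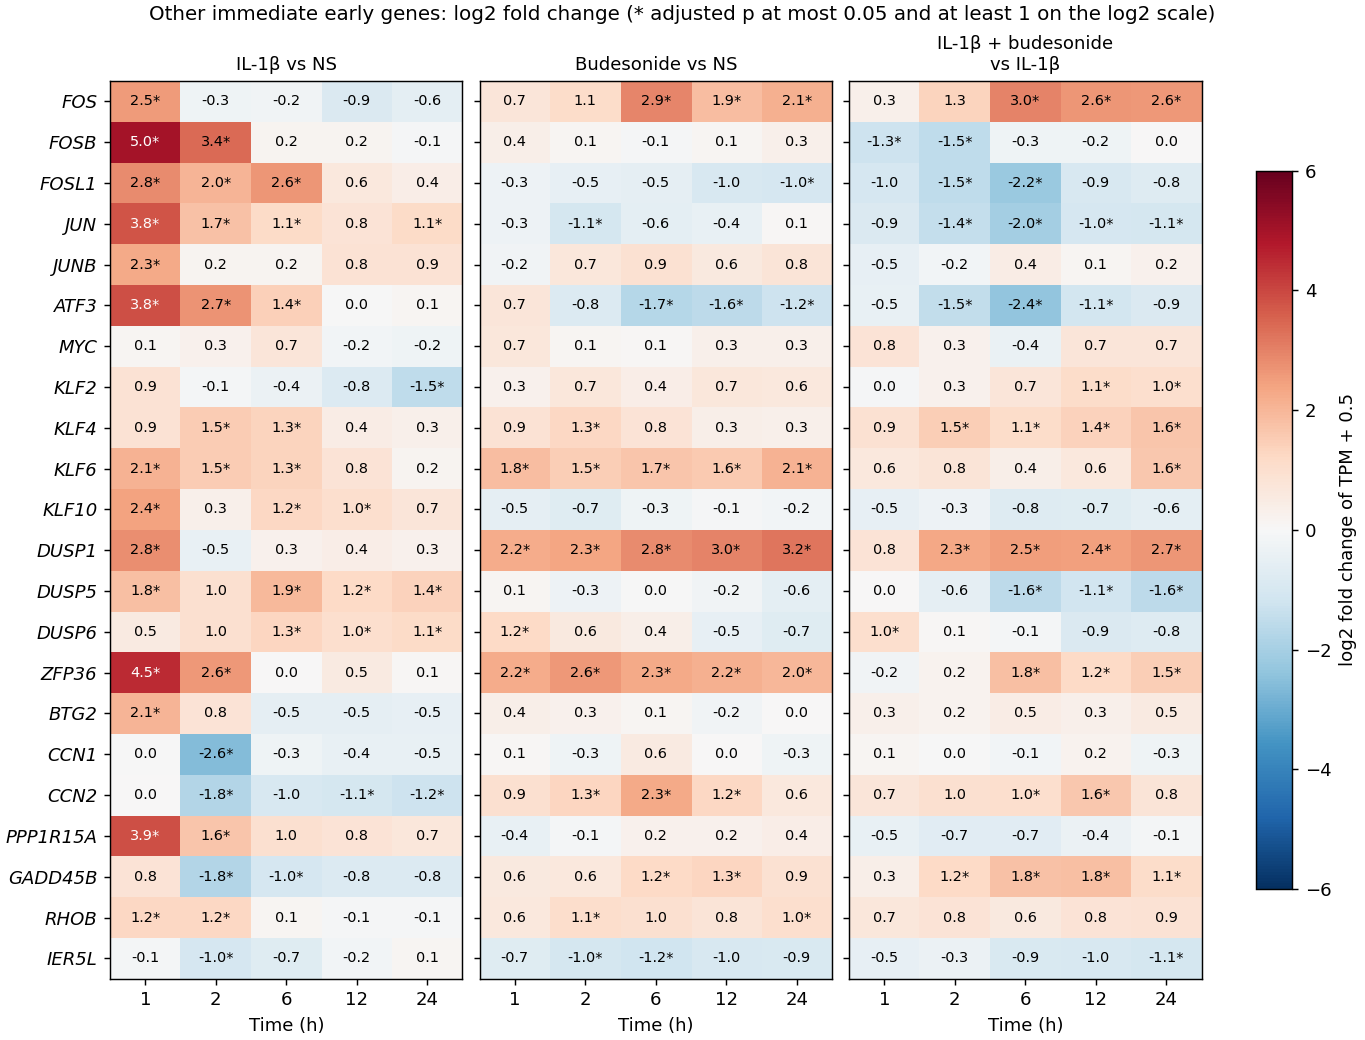
Log2 fold change of the 22 other immediate early genes tested (rows) at each time in hours (columns) for IL-1β against NS, budesonide against NS and IL-1β-plus-budesonide against IL-1β; red is higher, blue is lower, and an asterisk marks an adjusted p of at most 0.05 with a log2 fold change of at least 1 in size. DUSP1 reaches 3.19 with budesonide and FOSB 5.00 with IL-1β.

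The mRNAs of upstream activators of these genes (serum response factor, its partners, CREB family members and kinases) were looked at in the same comparisons. Of 15 tested, none was called with IL-1β (7.53% of all genes higher and 8.8% lower at some time), and 2 were lower and none higher with budesonide (6.36% and 4.87% of all genes), CREM at 24 hours (−1.14 ± 0.11) and RPS6KA3 at 12 hours (−1.03 ± 0.19). CREM was also lower in IL-1β-plus-budesonide against IL-1β at 24 hours (−1.17 ± 0.11). Among 11 partners and feedback regulators, 5 were higher with IL-1β and none lower, against the same 7.53% and 8.8%, among them the ERK pathway inhibitor SPRY4 (2.15 ± 0.17 at 2 hours), the ERK phosphatases DUSP5 (1.93 ± 0.16 at 6 hours) and DUSP6 (1.29 ± 0.23 at 6 hours), both also in the list above, and the EGR corepressor NAB1 (1.24 ± 0.37 at 2 hours). With budesonide DUSP6 (1.21 ± 0.21 at 1 hour) and the NR4A dimer partner RXRA (1.09 ± 0.08 at 24 hours) were higher, against 4.87% of all genes. In IL-1β-plus-budesonide against IL-1β (5.15% of all genes higher and 5.6% lower), DUSP5 (−1.58 ± 0.15 at 6 hours), DUSP4 (−1.29 ± 0.10 at 24 hours) and SPRY4 (−1.17 ± 0.18 at 12 hours) were lower and DUSP6 was higher (1.03 ± 0.21 at 1 hour).

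The 9 genes were also compared by the course of their mean log2 level over the 20 groups, as Pearson's r, a description in which all genes share the same libraries. EGR1 and EGR2 were the most alike pair (r = 0.97), followed by EGR2 and EGR3 (0.925), NR4A1 and NR4A2 (0.897) and NR4A2 and IER3 (0.89). EGR1 and IER5 were the least alike (0.368). EGR2 and EGR3 reached 1 TPM in no NS library and entered the test through the groups in which they were high. Their r values therefore rest mainly on the early groups with IL-1β and do not show a shared course elsewhere. Over all genes tested, the 3 most like EGR1 were EGR2, FOSB (0.939) and PPP1R15A (0.936), and for EGR3 they were FOSB (0.968), TMEM88 (0.949) and PPP1R15A (0.926). For EGR2 they were EGR1, PPP1R15A (0.961) and TMEM88 (0.949). NR4A1 was most like BCL3 (0.935), TMEM88 (0.928) and NOCT (0.907), NR4A2 like RND1 (0.947), TNFSF9 (0.941) and TNFSF15 (0.912), and NR4A3 like TMCC2 (0.925) and ARL14 (0.914). The IER genes shared none of the 3 genes named for each. Among themselves r was 0.846 for IER2 and IER3, 0.834 for IER3 and IER5 and 0.649 for IER2 and IER5. IER2 was most like BHLHE40 (0.937), DUSP8 (0.925) and CLCF1 (0.906), IER3 like DRD1 (0.966), PTGS2 (0.957) and LIF (0.95), and IER5 like FOXC1 (0.906), MSC (0.902) and NCOA7 (0.894).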

How the data were processed

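Libraries of poly(A) RNA from A549 cells covered the 20 groups above. Per the study's methods the authors quantified reads with kallisto against the GRCh38/hg38 transcriptome and normalized with sleuth; versions were not given in the sources used here. The deposited values are a normalized signal per gene on the TPM scale, rescaled between libraries, with no read counts, so no counting error or detection limit could be given. A deposited table of the authors' own fold changes and false discovery rates was not used, nor was 1 of the 79 libraries in the table (an NS library at 6 hours), which the labels do not list.

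Groups came from the sample labels. Genes with at least 1 TPM in at least 3 of 78 libraries were kept (13327 of 19652; 6325 left out), and log2(TPM + 0.5) was fitted with limma 3.58.1 (trend; R 4.3.3) with one mean per group and 58 residual degrees of freedom. Of 42 contrasts, those at the same time compared treatments, and the others compared NS levels or responses at a later time with 1 hour. P-values were adjusted by Benjamini-Hochberg over all genes of a contrast. The fit was tested on simulated data. The labels speak of 4 independent experiments, 3 at 12 hours, without tying libraries to them.

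The 9 genes are named throughout. From lists of other immediate early genes, upstream activators, and partners and feedback regulators, at most 4 genes were named per comparison, those with the largest absolute log2 fold change among those called, and for each of the 9 genes the 3 most similar by Pearson's r, of which 1 is not reported here. The genes and lists were chosen with earlier results of these data known. Alternatives covered the pseudocount (0.1 and 1), the filter (none, or a mean of at least 5 TPM), median-of-ratios scaling, quantile normalization, a replicate block, leaving out each replicate number, fits of one time only and array weights. Leaving out the 5 libraries farthest from their group was added after seeing the data. Promoter sequences came from RefSeq (GRCh38.p14) and gene positions from GENCODE 44.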

Additional observations from a re-analysis of the deposited data

Results flagged for a closer look

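Single libraries stood apart from the other 3 of their group, by Dixon's test, in 6 of the 107 gene and group sets of 4 libraries in which a library reached 1 TPM, and chance flags about 1 in 20. NR4A1 was at 24.1 TPM in IL-1β library 3 at 6 hours (others 14.9 to 16 TPM). NR4A2 was at 26.6 TPM in IL-1β library 3 at 1 hour (others 20.4 to 20.8 TPM). IER3 was at 173 TPM in IL-1β library 1 at 24 hours (others 224 to 228 TPM) and at 22.1 TPM in budesonide library 4 at 2 hours (others 15.1 to 15.8 TPM). IER5 was at 6.84 TPM in budesonide library 3 at 12 hours (others 6.61 to 6.62 TPM) and at 6.16 TPM in budesonide library 2 at 24 hours (others 6.55 to 6.6 TPM).

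The response to IL-1β was called lower at a later time than at 1 hour (limma, adjusted p of at most 0.05 and a log2 difference of at least 1 in size) in 6 of the 7 counted genes. Of all genes tested, 7.86% were called lower in this comparison at some time. The log2 difference between the responses, at the time when it was largest, was −6.29 for EGR1 at 24 hours, −2.63 for NR4A1 at 6 hours, −2.03 for NR4A2 at 6 hours, −1.90 for NR4A3 at 24 hours, −2.68 for IER2 at 2 hours and −1.12 for IER3 at 6 hours. EGR2 (−1.65 at 12 hours) and EGR3 (−2.71 at 24 hours) also passed, but they entered the test through the groups in which they were high and had to differ.

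The response to budesonide was called lower at 24 hours than at 1 hour in 5 genes. The log2 differences were −1.06 for EGR1, −1.77 for NR4A1, −1.60 for NR4A2, −1.22 for NR4A3 and −1.14 for IER3. Of all genes tested, 6.11% were called lower in this comparison at some time. With a pseudocount of 1, EGR1 (−0.79) and NR4A3 (−0.82) were under the threshold. The EGR1 call was also lost without replicate 1 (−0.70, adjusted p = 0.129) or replicate 4 (−0.98). The effect of budesonide differed with and without IL-1β for IER3 at 24 hours (−1.02). The same value for EGR3 at 1 hour was −1.21, but EGR3 reached 1 TPM in no NS library and entered the test through the IL-1β groups, and in a fit of the 1-hour libraries only its adjusted p was 0.117.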

How the results depend on the processing

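No called value changed sign among the 378 gene, comparison and time values under the alternatives run. With a pseudocount of 1, 21 values no longer passed, the pairs called lower for IL-1β-plus-budesonide against NS went from 5 to 3 and those for the budesonide response over time from 8 to 4. With a pseudocount of 0.1, 1 value no longer passed and 25 newly passed, with 1 pair lower for IL-1β-plus-budesonide against budesonide (0 as reported) and 3 lower in NS over time (0 as reported; 1 with quantile normalization). The single interaction pair, IER3 at 24 hours, was lost (0 pairs) with a pseudocount of 0.1, quantile normalization, array weights or without the 5 far libraries. On leaving out each replicate number, the interaction count ranged from 0 to 1 and the budesonide response count from 5 to 9. No scaling moved the median of all genes by more than 0.082. Same-numbered libraries deviated together in 111 of 114 pairs (r over 0.1, lowest −0.119, median 0.266). For 77 of 78 libraries, the mean r with the other groups of the same time was highest for their own number. Both are a hint from the data and not from the labels. With the replicate block the counts were 16, 15, 17 and 18 for IL-1β higher, budesonide lower, IL-1β-plus-budesonide lower than IL-1β and the decline of the IL-1β response, as reported, and 9 against 8 for the budesonide response over time, where NR4A1 at 6 hours newly passed (−1.06, adjusted p = 0.00024). With a mean of at least 5 TPM, EGR2, EGR3 and NR4A3 were not tested. Without read counts, the precision of EGR2 and EGR3 near 0 TPM is unknown.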
